A study of Mus musculus with 6 samples.

Results

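The miR-99b and miR-125a cluster is a group of microRNA (miRNA) hairpins on mouse chromosome 17 that lie close together on 1 strand, with the let-7e hairpin between them. The cluster is represented here by 4 mature entries of Mus musculus (prefix mmu), namely mmu-miR-99b-5p, mmu-miR-99b-3p, mmu-miR-125a-5p and mmu-miR-125a-3p, written without the prefix from here on and found by their full names among the 1899 entries of the deposited tables. All 4 reached a mean count of 50 over the 6 libraries, the minimum used here for 351 tested entries. None of the 4 was merged with another miRNA, and none had a read that also matched another entry. The libraries are of small RNA from mouse embryonic stem cells of strain 129/Ola, with 1 library for each of 6 groups. The groups were untreated wild-type (WT) cells, untreated Wt1 knockout (KO) cells, WT and Wt1 KO cells treated with retinoic acid (RA), and Wt1 KO cells after 12 h or 24 h of doxycycline (dox), which induces Wt1. Wt1 encodes a zinc finger transcription factor. RA, a vitamin A derivative that drives stem cells to differentiate, was added to 1 µM (taking the label's 1 µm to mean micromolar), and dox to 1 µg/ml. All groups share a medium with serum and leukemia inhibitory factor on gelatin. The sources used here do not give the duration of RA, the number of clones, or which line carries the inducible Wt1. No cells without the inducible gene received dox, and the Wt1 mRNA is outside what small RNA libraries count, which leaves the knockout and the induction unchecked.

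A miRNA is cut from a hairpin and guides a silencing complex to messenger RNAs that pair with its seed, bases 2 to 8. Usually 1 arm of the hairpin is kept and the other is degraded. miR-125 is the vertebrate relative of lin-4 of Caenorhabditis elegans, a miRNA that times larval development, and the miR-99 and miR-100 family is known to repress mTOR. In mouse stem cells LIN28 blocks the maturation of let-7 precursors, which makes let-7e, made from the same cluster, a useful companion of the 4 members.

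The mature sequences are shown with the seed in capitals because the seed decides which miRNAs count as relatives. They are those of RefSeq for GRCm38.p6, matched by name for 4 of 4 members.
miR-99b-5p: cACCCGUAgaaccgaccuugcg
miR-99b-3p: cAAGCUCGugucuguggguccg
miR-125a-5p: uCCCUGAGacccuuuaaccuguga
miR-125a-3p: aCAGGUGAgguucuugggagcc
let-7e-5p: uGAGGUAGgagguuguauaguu
The 4 members have 4 different seeds, so each belongs to a seed family of its own. Their lengths are 22, 22, 24 and 22 bases, and miR-125a-5p has the lowest GC content, 50%, against 63.6% in both arms of miR-99b and 59.1% in miR-125a-3p.

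The close relatives made from other chromosomes are shown the same way, since the seed families are compared further on.
miR-99a-5p: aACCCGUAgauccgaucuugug
miR-100-5p: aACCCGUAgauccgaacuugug
miR-125b-5p: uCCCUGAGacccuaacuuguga
miR-351-5p: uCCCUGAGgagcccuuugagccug
Counted from 1 at the 5′ end of miR-99b-5p, miR-99a-5p differs from it by C1A, A11U, C16U and C21U, and miR-100-5p by C1A, A11U, C16A and C21U. None of the 4 differences in either pair lies in the seed. miR-125a-5p and miR-125b-5p are identical over their first 13 bases.

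On GRCm38.p6 the mature miR-99b-5p lies on the plus strand at chr17:17830194-17830215 and miR-99b-3p at chr17:17830232-17830253. miR-125a-5p lies at chr17:17830817-17830840 and miR-125a-3p at chr17:17830855-17830876. The Mir99b and Mirlet7e hairpins are 94 bases apart, Mirlet7e and Mir125a 367 bases, and the whole cluster spans 692 bases. In the GENCODE annotation the cluster lies inside the gene Spaca6 on the same strand. Mir99b and Mirlet7e fall in intron 1 of the 2 Spaca6 transcripts that span them. Mir125a falls in intron 1 of 2 transcripts and overlaps an exon of 1 other, of 16 annotated. The Mir125a hairpin is printed here with its arms in capitals, to show how the abundant 5p arm and the rare 3p arm face each other across the loop.
Mir125a: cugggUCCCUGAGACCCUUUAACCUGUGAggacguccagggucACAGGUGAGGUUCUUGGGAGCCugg

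**Figure D1:**
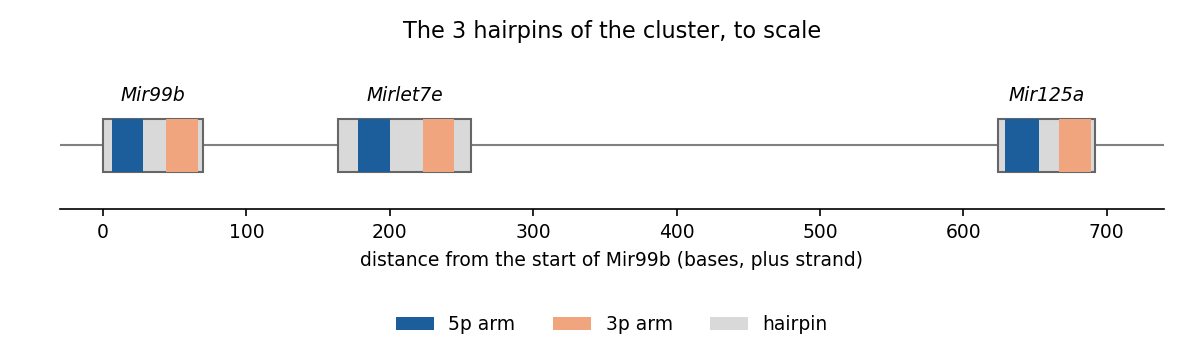
Positions of the 3 hairpins of the cluster and their mature arms, drawn to scale as the distance in bases from the start of Mir99b on the plus strand. Mir99b and Mirlet7e stand 94 bases apart and Mir125a lies 367 bases downstream of Mirlet7e.

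Reads that matched 1 entry numbered between 83626 in RA-treated Wt1 KO and 6106104 in RA-treated WT, a 73.0-fold range. A count of 3, the floor set here, equals 27.8 normalised CPM in RA-treated Wt1 KO and at most 2.75 in each of the other libraries. Normalised CPM is a count set against the TMM-scaled library size. With 1 library per group there is no spread between replicates and no test between conditions. Every interval given is a 95% interval for counting error only, and reads of a PCR library are not independent molecules. The stem cell miRNAs of the miR-290 and miR-302 clusters held between 16.1% and 23.5% of reads in the 4 libraries without RA, 9.41% in RA-treated Wt1 KO and 0.753% in RA-treated WT. The RA-responsive miR-10a, miR-10b and miR-615 held at most 0.0300% of reads without RA, 10.9% in RA-treated WT and 2.38% in RA-treated Wt1 KO. Blood and endothelial miRNAs held 0.0883% of reads in untreated WT, between 0.241% and 0.399% in the 3 Wt1 KO libraries without RA, 0.0109% in RA-treated WT and 0.0562% in RA-treated Wt1 KO. Both arms of miR-223 were at 0 in all 6 libraries. Fibroblast and mesenchymal miRNAs held 0.603% of reads in RA-treated Wt1 KO and at most 0.0675% elsewhere. Muscle miRNAs, with reads for 1 of 7 entries, held 0.0111% of reads in untreated WT, at most 0.00124% in the 3 Wt1 KO libraries without RA, and under RA 0.0463% in WT and 0.0287% in Wt1 KO. Neural miRNAs held 0.0212% of reads in untreated WT and between 0.0335% and 0.0405% in the other 5 libraries, and endodermal ones between 0.0110% and 0.0371%. The part of these marker shares in the results was not tested, and in bulk RNA fewer cells of a type and less RNA per cell cannot be told apart.

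The 4 members together held 5.61% of the reads of untreated WT, 8.82% of RA-treated WT, and between 0.919% and 2.67% of those of the 4 Wt1 KO libraries. miR-99b-5p, the major arm of its hairpin, had 35563 reads in WT against 16127 in Wt1 KO without treatment, and 4715 at 12 h of dox, 16491 at 24 h of dox, 335971 in RA-treated WT and 1283 in RA-treated Wt1 KO. Scaled between libraries, these were 32644, 11429, 4166, 4847, 50186 and 11875 normalised CPM in the same order. Both WT libraries thus stood above all 4 Wt1 KO libraries, and the dox libraries were the lowest. Untreated Wt1 KO and RA-treated Wt1 KO are neighbours whose intervals overlap, from 11253 to 11607 and from 11234 to 12543 normalised CPM. miR-99b-5p ranked 6 in its library by count in untreated WT, 4 in RA-treated WT and between 13 and 35 in the Wt1 KO libraries.

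miR-125a-5p, the major arm of the other hairpin, had 23566 reads in WT against 9547 in Wt1 KO without treatment, and 6409 at 12 h of dox, 27798 at 24 h, 198938 in RA-treated WT and 912 in RA-treated Wt1 KO. Its normalised CPM were 21632, 6766, 5662, 8171, 29717 and 8441 in that order. Again both WT libraries were above every Wt1 KO library, but the dox libraries did not stand apart. RA-treated Wt1 KO and Wt1 KO after 24 h of dox overlapped, with intervals from 7902 to 9007 and from 8075 to 8268 normalised CPM. It ranked 10 in both WT libraries and between 18 and 24 in the Wt1 KO libraries.

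The 3p arms were rare. miR-99b-3p had 428 reads in WT against 170 in Wt1 KO without treatment, and 121 at 12 h of dox, 454 at 24 h, 2740 in RA-treated WT and 35 in RA-treated Wt1 KO, which were 393, 120.5, 107, 133, 409 and 324 normalised CPM. The Wt1 KO library with RA lay close to the WT libraries for this arm, unlike for the 5p arms. miR-125a-3p had 99, 22, 34, 80, 610 and 3 reads in the same order, or 90.9, 15.6, 30.0, 23.5, 91.1 and 27.8 normalised CPM. It was the rarest member in every library, and its value in RA-treated Wt1 KO rests on 3 reads.

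**Figure D2:**
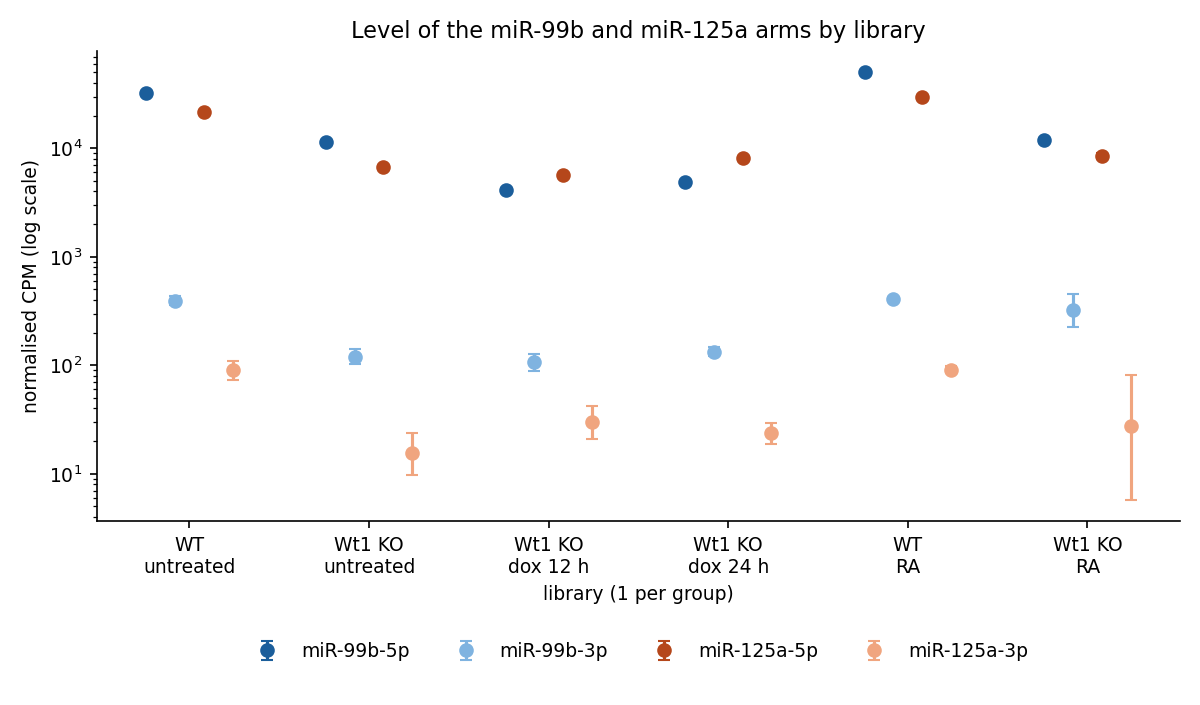
Normalised CPM on a log axis of the 4 members in each of the 6 libraries (1 per group); points are the levels and bars the 95% counting intervals. Both 5p arms are highest in RA-treated WT and untreated WT, and miR-99b-5p lies below miR-125a-5p in the 2 dox libraries, at 4166 against 5662 and 4847 against 8171 normalised CPM.

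The first comparison asks how the loss of Wt1 goes with miRNA levels in untreated stem cells. All 4 members were lower in the Wt1 KO library than in the WT library. An entry was called higher or lower when its log2 ratio was at least 1 or at most -1 and the counting interval excluded 0. By this rule 4 of 4 members were lower, against 15.4% of the 351 tested entries. The log2 ratio was -1.51 [-1.54 to -1.49] for miR-99b-5p, a level 2.86-fold lower. It was -1.68 [-1.71 to -1.64] for miR-125a-5p, -1.70 [-1.97 to -1.45] for miR-99b-3p and -2.52 [-3.28 to -1.87] for miR-125a-3p. The median log2 ratio was -1.69 over the members and 0.11 over all tested entries. let-7e-5p, the companion from the same cluster, was also lower, with 540 and 137 reads and a log2 ratio of -2.35 [-2.63 to -2.08]. It was the 1 let-7 miRNA of 7 measured that was called lower, none was called higher, and the family's median was 0.47. Of 5 measured paralogs from other chromosomes, 3 were lower as well, among them miR-125b-5p. Most had few reads in these libraries. The called miR-100-5p had 16 in WT and 2 in Wt1 KO. The uncalled miR-99a-5p had 4 and 0, and miR-125b-2-3p 2 and 5, too few for a call. Scaled as plain CPM of the library total, the median of all tested entries moved by -0.36 and the calls shifted from 43 higher and 54 lower to 24 higher and 78 lower, and the 4 members stayed lower.

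RA was compared with no treatment within each genotype, to follow differentiation. In WT no member was called, against 22.2% of tested entries called higher and 24.2% called lower. miR-99b-5p stood at a log2 ratio of 0.62 [0.60 to 0.64], which is 1.54-fold, and miR-125a-5p 0.46 [0.44 to 0.48]. The intervals of miR-99b-3p, at 0.06, and of miR-125a-3p, at 0.00, included 0. The relatives with the same seeds moved much further in the same libraries. miR-99a-5p had 4 reads in untreated WT and 3317 in RA-treated WT, a log2 ratio of 6.91 [5.72 to 8.95]. miR-100-5p had 16 and 3868 reads, 5.25 [4.60 to 6.11], and miR-125b-5p had 534 and 32005 reads, 3.28 [3.16 to 3.41]. Of 7 listed paralog entries (both arms of miR-99a, miR-100 and the miR-125b hairpins), 5 were measured, and 5 of 5 were higher with RA in WT, at log2 ratios between 2.37 and 6.91. Some of these, such as miR-99a-5p and miR-100-5p, reach the minimum count through their reads in RA-treated WT, so the count only describes them. let-7e-5p was higher too, with 540 and 8827 reads and a log2 ratio of 1.41 [1.29 to 1.54], and 6 of 7 let-7 miRNAs were called higher. The called let-7b-5p and the uncalled let-7d-5p, with 282 and 186 reads in RA-treated WT, reach the minimum count through that library. The let-7 count therefore also only describes them.

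In Wt1 KO cells RA gave a different picture for the 3p arm of miR-99b, in the shallowest library of the series. miR-99b-3p, with 170 reads untreated and 35 with RA, had a log2 ratio of 1.44 [0.86 to 1.96] and was the 1 member called higher, against 23.6% of tested entries. Between the scalings, prior counts and minimum counts tried, its ratio ran from 1.09 to 2.16. The log2 ratio of miR-99b-5p was 0.06 [-0.03 to 0.14], that of miR-125a-5p 0.32 [0.22 to 0.42] and that of miR-125a-3p 1.02 [-1.55 to 2.57]. miR-125a-5p passed the size rule at 1.02 when scaled as plain CPM, which moved the median of all tested entries by 0.70 and the calls from 83 higher and 79 lower to 126 and 33, and miR-99b-5p then stood at 0.75. The 5 measured paralogs were all called higher here too, a count that only describes them, since most reach the minimum count through RA-treated WT. Their reads in Wt1 KO were few, such as 2 untreated and 16 with RA for miR-100-5p, and 10 and 12 for miR-125b-1-3p. miR-99a-5p had no read in untreated Wt1 KO and 39 with RA, and the counting interval of its log2 ratio starts at 7.04. let-7e-5p had 137 and 73 reads in these libraries of unequal depth, a log2 ratio of 2.80 [2.37 to 3.22], and 4 of 7 let-7 miRNAs were called higher.

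The genotypes were also compared under RA. There 3 of 4 members were lower in Wt1 KO, against 19.1% of tested entries. One of these, miR-125a-3p, reaches the minimum count through its 610 reads in RA-treated WT, so the count only describes the members. The log2 ratio of miR-99b-5p was -2.08, a level 4.22-fold lower, that of miR-125a-5p -1.81 [-1.91 to -1.72] and that of miR-125a-3p -1.49 [-4.00 to -0.16]. miR-99b-3p stood at -0.32 [-0.86 to 0.14]. The call of miR-125a-3p was lost under 3 other scalings and at a prior count of 2, with ratios from -1.30 to -0.98. Plain CPM moved the median of all tested entries by 0.24 and the calls from 66 higher and 67 lower to 82 and 42. Of the paralogs 3 of 5 were lower in RA-treated Wt1 KO, among them miR-125b-5p at -2.26. The others called lower, miR-100-5p and miR-125b-1-3p, had 16 and 12 reads there. Both reach the minimum count through RA-treated WT, so this count too only describes the paralogs. let-7e-5p stood at -0.95 [-1.32 to -0.63].

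The difference between the RA responses, Wt1 KO minus WT on the log2 scale, was 1.39 [0.84 to 1.93] for miR-99b-3p, the 1 of 4 members called higher, against 23.1% of tested entries. It was -0.56 [-0.65 to -0.48] for miR-99b-5p, -0.14 [-0.24 to -0.04] for miR-125a-5p and 1.02 [-0.63 to 2.68] for miR-125a-3p. Between the settings tried this difference ran from -0.93 to 0.15 for miR-99b-5p and from -0.50 to 0.58 for miR-125a-5p, so neither has a direction that holds under every scaling. Plain CPM moved the median of all tested entries by 0.60 and the calls from 81 higher and 53 lower to 131 and 18.

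Dox was given to Wt1 KO cells to induce Wt1, and both times were compared with the 1 untreated Wt1 KO library, which these comparisons share. Whether that library is of the same clone as the dox libraries is not stated, so dox and a difference between clones cannot be told apart. miR-99b-5p alone of the 4 members was called at either time, and it was lower. At 12 h its log2 ratio was -1.46 [-1.50 to -1.41], from 11429 to 4166 normalised CPM, and 8.55% of tested entries were called lower. At 24 h it was -1.24 [-1.27 to -1.21], at 4847 normalised CPM, and 3.7% of tested entries were called lower. The other arm of the same hairpin, miR-99b-3p, stood at -0.17 [-0.52 to 0.17] and 0.14 [-0.11 to 0.41]. miR-125a-5p stood at -0.26 [-0.30 to -0.21] at 12 h and 0.27 [0.24 to 0.31] at 24 h. miR-125a-3p stood at 0.93 [0.13 to 1.79] and 0.57 [-0.10 to 1.34], from 22 reads in untreated Wt1 KO to 34 and 80.

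These dox values depend in part on the scaling. With the stem cell clusters miR-290 and miR-302 left out of the total, miR-99b-5p stood at -1.13 at 12 h and -0.93 at 24 h, and the latter is not called. With that scaling the median of all tested entries moved by 0.33 and 0.31. The calls moved from 15 higher and 30 lower to 44 and 9 at 12 h, and from 20 and 13 to 37 and 6 at 24 h. miR-125a-3p was called higher at 12 h with plain CPM, the median of ratios and CPM without either the stem cell clusters or the members, at 1.01 to 1.26. miR-125a-5p at 12 h ran from -0.30 to 0.07 between all settings tried. None of the 5 measured paralogs was called at either time. Only miR-125b-5p had many reads, with 139 in untreated Wt1 KO, 97 at 12 h and 382 at 24 h. The other measured paralogs had at most 21 reads in any of these libraries, which left little room for a call. let-7e-5p stood at -0.80 [-1.26 to -0.36] at 12 h and 0.28 [0.00 to 0.57] at 24 h. Between 12 h and 24 h no member was called, against 5.41% of tested entries, and miR-125a-5p had the largest ratio of the 4, 0.53 [0.49 to 0.57].

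Set against untreated WT, both dox libraries had 4 of 4 members called lower, against 17.4% of tested entries at 12 h and 14.8% at 24 h. miR-99b-5p stood at -2.97 [-3.01 to -2.93] and -2.75 [-2.78 to -2.72], the lowest of the members at both times. miR-125a-5p stood at -1.93 and -1.40, miR-99b-3p at -1.87 and -1.56, and miR-125a-3p at -1.58 and -1.95. Every member was thus below its level in untreated WT at both times. Without the members in the total, the calls moved from 43 higher and 61 lower to 29 and 80 at 12 h and from 38 and 52 to 30 and 68 at 24 h.

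**Figure D3:**
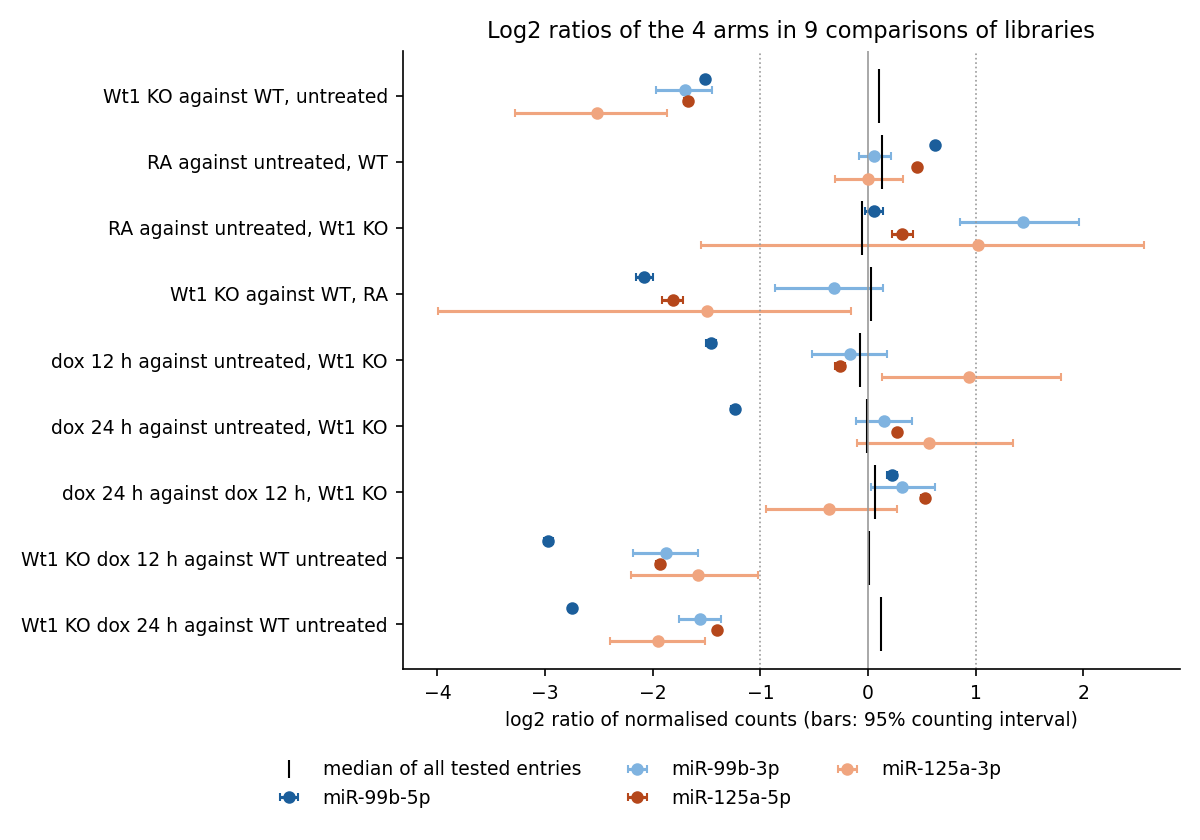
Log2 ratios of normalised counts for the 4 members in 9 comparisons of libraries, with 95% counting intervals as bars, the size rule as dotted lines and the median of all 351 tested entries as black ticks. The members lie to the left of the median for untreated Wt1 KO against WT, and in the 2 comparisons of dox with untreated Wt1 KO miR-99b-5p alone lies past -1, at -1.46 and -1.24.

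Ratios within 1 library do not depend on the scaling between libraries. The ratio of miR-99b-5p to miR-99b-3p reads was 83.1 in WT and 94.9 in Wt1 KO without treatment and 123 in RA-treated WT, but 39.0 at 12 h of dox, 36.3 at 24 h and 36.7 in RA-treated Wt1 KO. The 6 libraries thus fell apart into 3 with a high and 3 with a low ratio, with no overlap of the intervals, which run from 75.5 upward in the first 3 and up to 52.9 in the others. Against untreated Wt1 KO the log2 ratio of the arms shifted by -1.29 [-1.62 to -0.95] at 12 h of dox, by -1.38 [-1.64 to -1.13] at 24 h and by -1.39 [-1.92 to -0.86] with RA. Between the RA libraries of the genotypes the shift was -1.76 [-2.25 to -1.28], and between the untreated ones 0.19 [-0.07 to 0.45], where 5.26% of 76 hairpins had a lower ratio by the size rule. Over these hairpins, all with both arms measured, a lower ratio was found in 13.2% at 12 h of dox, in 9.21% at 24 h, in 15.8% with RA in Wt1 KO and in 11.8% between the genotypes under RA.

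The ratio of miR-125a-5p to miR-125a-3p reads was 238 in WT and 434 in Wt1 KO without treatment, 188.5 at 12 h of dox, 347 at 24 h, 326 in RA-treated WT and 304 in RA-treated Wt1 KO. It was lower at 12 h of dox than in untreated Wt1 KO, by -1.19 [-1.96 to -0.42] on the log2 scale, and at 24 h the shift was -0.30 [-0.97 to 0.38]. Set against untreated WT, the shift of this ratio at 12 h was -0.35 [-0.91 to 0.21]. The library order differed from that of miR-99b. Its interval in RA-treated Wt1 KO, from 104 to 1477, spans the values of all the other libraries.

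Between the hairpins, miR-99b-5p had 1.51 reads per miR-125a-5p read in untreated WT, 1.69 in untreated Wt1 KO, 1.69 in RA-treated WT and 1.41 in RA-treated Wt1 KO. After dox the order of these 5p arms turned, with 0.736 at 12 h and 0.593 at 24 h. Against untreated Wt1 KO, this ratio shifted by -1.20 [-1.26 to -1.13] and -1.51 [-1.56 to -1.46] on the log2 scale. The rare miR-99b-3p, in contrast, had 0.0182, 0.0178, 0.0189 and 0.0163 reads per miR-125a-5p read in WT, in Wt1 KO and at 12 h and 24 h of dox. Its shifts with dox were 0.09 [-0.25 to 0.42] and -0.13 [-0.38 to 0.13]. Against the other rare arm, miR-125a-3p, miR-99b-3p shifted by -1.11 [-1.94 to -0.27] at 12 h and -0.42 [-1.15 to 0.30] at 24 h. The 3p arms thus also parted at 12 h when set against untreated Wt1 KO, where miR-125a-3p had 22 reads. Set against untreated WT, their shift at 12 h was -0.29 [-0.92 to 0.34]. With RA the ratio of miR-99b-3p to miR-125a-5p was 0.0138 in WT and 0.0384 in Wt1 KO. The latter is a shift of 1.12 [0.59 to 1.65] from untreated Wt1 KO. Against miR-125a-3p, with 3 reads in RA-treated Wt1 KO, miR-99b-3p shifted by 0.42 [-1.29 to 2.13]. So in the dox libraries the 5p arm of miR-99b stood apart from its own 3p arm and from miR-125a-5p, whatever the scaling, while in RA-treated Wt1 KO it was the 3p arm of miR-99b that stood apart from both 5p arms.

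**Figure D4:**
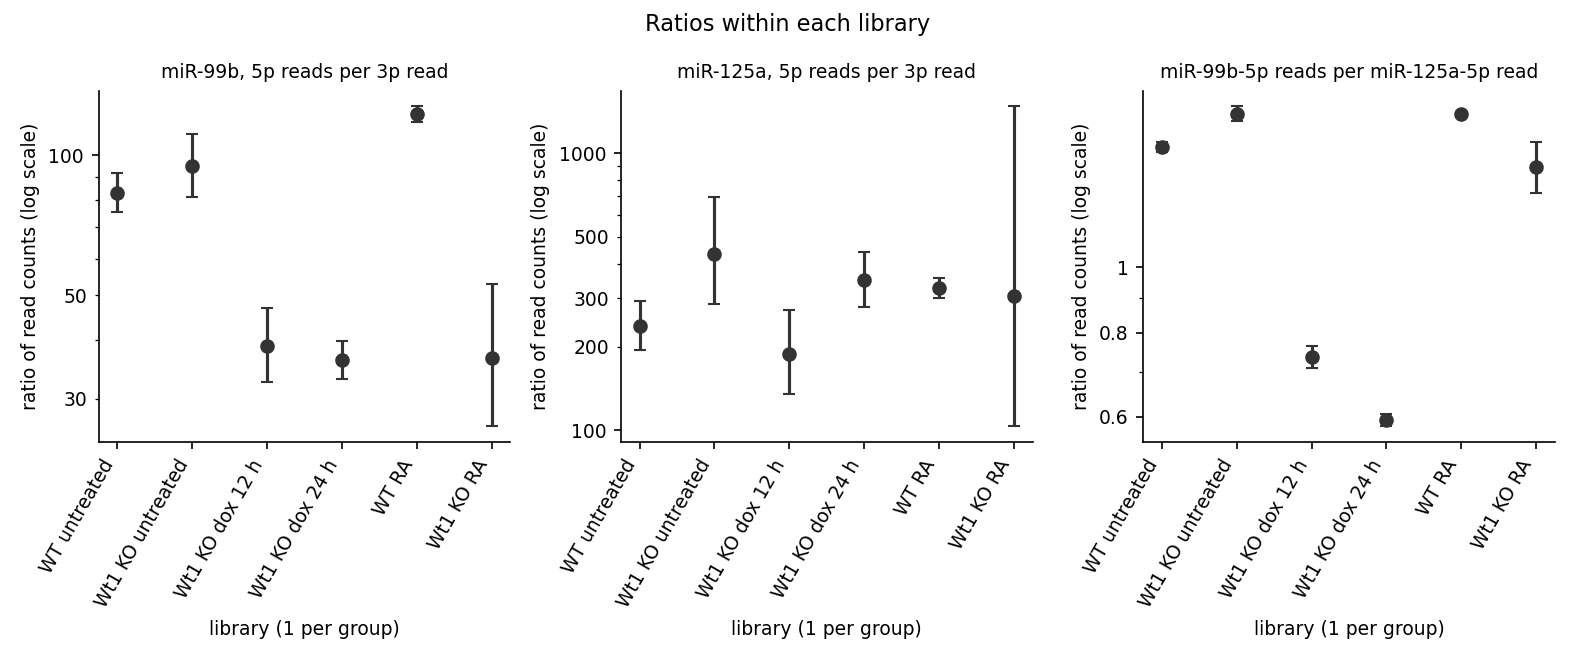
Ratios of read counts within each of the 6 libraries on log axes, with 95% counting intervals as bars. The left panel has 5p reads per 3p read of miR-99b (36.3 to 123), the middle panel the same for miR-125a (188.5 to 434), and the right panel miR-99b-5p reads per miR-125a-5p read, below 1 in the 2 dox libraries only.

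let-7e-5p was far rarer than the 5p arms of its neighbours, but more abundant than miR-125a-3p in every library. There were 43.6 reads of miR-125a-5p per read of let-7e-5p in untreated WT, 69.7 in untreated Wt1 KO, 102 at 12 h of dox, 69.1 at 24 h, 22.5 in RA-treated WT and 12.5 in RA-treated Wt1 KO. Both RA libraries had the lowest ratios, with a log2 shift from untreated cells of -0.95 [-1.08 to -0.83] in WT and -2.48 [-2.90 to -2.06] in Wt1 KO. Across the 6 libraries this ratio varied 8.14-fold, against 2.85-fold for miR-99b-5p per miR-125a-5p.

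Within its seed family, miR-99b-5p made up nearly all reads. It held 99.9% of the reads with the seed ACCCGUA in untreated WT, 97.9% in RA-treated WT and 95.9% in RA-treated Wt1 KO, the rest being miR-99a-5p and miR-100-5p. The summed level of the seed was 32663 normalised CPM in untreated WT, 51259 in RA-treated WT and between 4167 and 12384 in the 4 Wt1 KO libraries. miR-125a-5p held 91.3% of the reads with the seed CCCUGAG in untreated WT, between 85.6% and 88.5% in the 3 Wt1 KO libraries without RA, 72.2% in RA-treated WT and 73.1% in RA-treated Wt1 KO. The other reads with this seed were of miR-125b-5p and of miR-351-5p, a miRNA of the X chromosome. Of miR-125a-5p and miR-125b-5p alone, miR-125a-5p held 97.8% in untreated WT and 86.1% with RA, and in Wt1 KO it held 98.6% and 89.5%. The relatives thus took a larger part of both families in the RA libraries, and the cluster still gave most reads of either seed in every library. Entries as close as miR-125a-5p and miR-125b-5p can share reads where mismatches are allowed, and the number of mismatches allowed was not given in the sources used here.

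**Figure D5:**
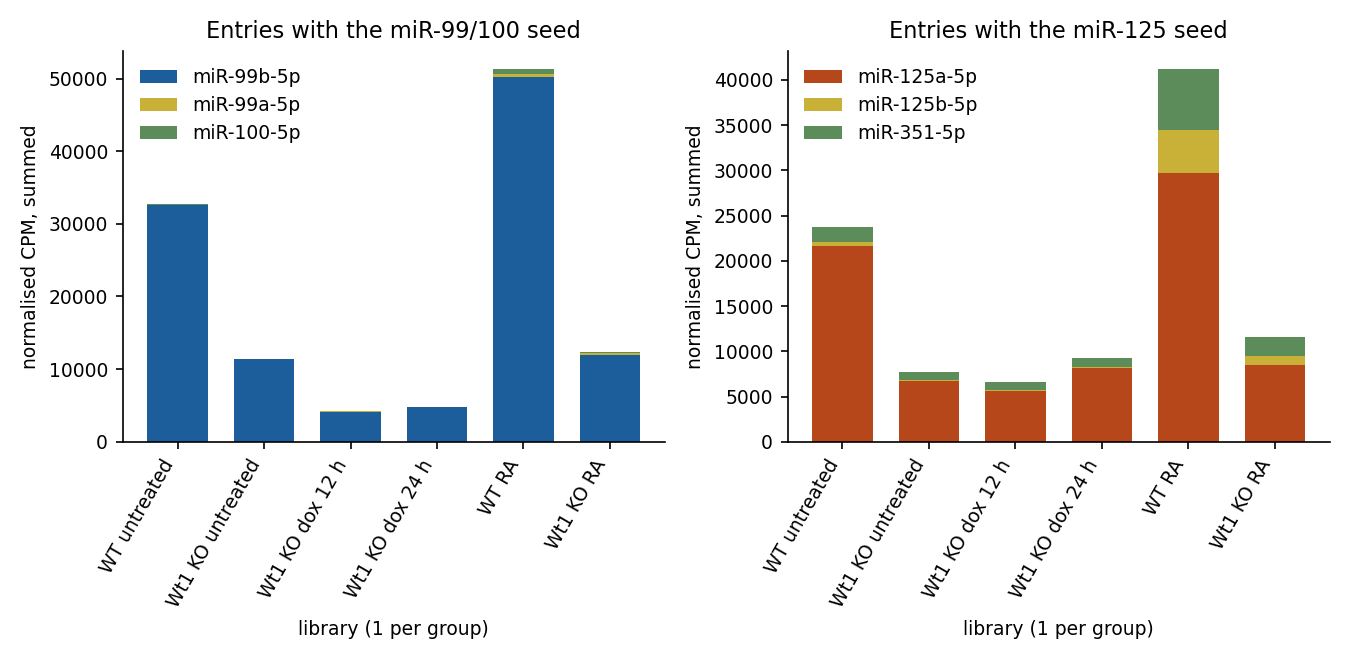
Stacked bars of normalised CPM, starting at 0, of the entries that share the seed of miR-99b-5p (left) and of miR-125a-5p (right) in each of the 6 libraries. The member of the cluster is the largest part of every bar, with larger parts of miR-125b-5p and miR-351-5p in the RA libraries, where miR-125a-5p holds 72.2% in WT and 73.1% in Wt1 KO.

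The likeness of patterns was measured as the root mean square difference of log2 normalised CPM over the 6 libraries, each entry centred on its own mean, among 350 other tested entries. The entry most like miR-125a-5p was miR-200a-3p, a miRNA of epithelial cells, with a difference of 0.23, at 305 normalised CPM without treatment and 437 with RA in WT, and in Wt1 KO at 78.0 untreated, 71.6 and 75.2 after dox and 111 with RA. The next were miR-6944-3p at 0.23, miR-200b-5p at 0.38, miR-193b-3p at 0.39 and miR-125a-3p at 0.39. miR-99b-3p was number 12 in this order and miR-99b-5p number 22, at 0.60. miR-200a-3p was also the entry most like miR-99b-5p, at 0.47, followed by miR-504-5p and miR-6944-3p at 0.50 and 0.51, miR-7226-3p at 0.52 and miR-31-5p at 0.60. miR-125a-5p was number 6 for miR-99b-5p, and miR-99b-3p number 10. The seed relatives miR-99a-5p and miR-100-5p were among the least like it, at number 347 and 323 of 350. Both had at most 16 reads in each library without RA and reach the minimum count through RA-treated WT. How far their low places follow from that was not tested, and the places only describe them. These distances share the same 6 libraries, their depths and their scaling, and describe only these. In RA-treated Wt1 KO several named entries rest on very few reads. There miR-200b-5p stood at 9.26 normalised CPM, the value of 1 read, miR-7226-3p at 0, and miR-125a-3p had 3 reads. The order of close entries can therefore turn on single reads.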

How the data were processed

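Small RNA was counted per mature miRNA in 6 libraries of mouse embryonic stem cells, 1 per group. The authors deposited counts of reads, which per the file headers matched 1 entry (unique matches) or several (multi-matches); per the labels' protocols, the miRNA band and a band of longer small RNAs were excised together. Which aligner, miRBase version, genome build and mismatch limit were used was not given in the sources used here. Unique-match counts were used as deposited. Near-identical miRNAs may share reads.

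Libraries were scaled with edgeR 4.0.16 under R 4.3.3 by TMM (trimmed mean of M values), computed on 351 entries whose mean count reached 50, and log2 ratios used a prior count of 0.5 per library. Ratio intervals are exact conditional binomial (Clopper-Pearson), level intervals exact Poisson, share intervals Wilson, and differences of ratios use the delta method, all at 95% and for counting error only. With 1 library per group no test between conditions, standard error or p-value was possible. The calculation was tested on simulated counts with Poisson error, drawn from the profile of untreated Wt1 KO with changes in RA-treated WT only. That simulation holds no spread between replicates and no PCR duplication, so it cannot speak to either. Alternatives were plain CPM, the median of ratios (DESeq2 1.42.0), CPM that leaves out the stem cell clusters (miR-290 and miR-302) or the members, minimum mean counts of 10, 200 or none, a prior count of 2, and added multi-matches. A TMM without the Wt1 KO RA library and a prior scaled to library size were added after seeing the data.

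Named entries are the 4 members, let-7e, the miR-99a, miR-100 and miR-125b paralogs, miR-351-5p, the let-7 family as a list, and the 5 entries with the most alike pattern to each 5p arm. The marker lists, members, named entries and tests were chosen with earlier results of these data known. Sequences and coordinates are RefSeq's for GRCm38.p6, and gene context is from GENCODE, matched by name.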

Additional observations from a re-analysis of the deposited data

Results flagged for a closer look

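The response of miR-99b-3p to RA differed between the genotypes by 1.39 on the log2 scale (Wt1 KO minus WT), with a counting interval that excludes 0, from 0.84 to 1.93. Its log2 ratio was 0.06 in WT, from 428 and 2740 reads, and 1.44 in Wt1 KO, from 170 and 35 reads. The difference was not tested between conditions, since each group is 1 library, and 23.1% of the tested entries were called higher in the same comparison. The ratio of miR-99b-3p to miR-125a-5p within a library, which needs no scaling, under RA was 0.0138 in WT and 0.0384 in Wt1 KO.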

How the results depend on the processing

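Of 418 values of single members under alternatives, 404 kept their side of the size rule, 5 lost a call and 9 gained one. No called value changed sign, but 25 values of 9 uncalled results did, among them both 5p arms in the difference of the RA responses. Of 244 counts, shares and within-library ratios, 234 stayed within 1.5 times the reported value and 10 did not. The shares and within-library ratios among them were checked only with multi-matches added. Their entries had no multi-matches, so these values could not move. Within that margin, the 3 members lower in Wt1 KO under RA became 2 where miR-125a-3p lost its call. At a minimum of 200 counts miR-125a-3p was not tested. For RA against untreated Wt1 KO, 2 members were higher with plain CPM and with CPM without the members, against 1. For dox 12 h against untreated Wt1 KO, 1 member (miR-125a-3p) was higher, against 0, with plain CPM, the median of ratios, CPM leaving out the stem cell clusters (miR-290 and miR-302), CPM without the members and no minimum count, at 1.14, 1.01, 1.26, 1.14 and 1.04. For dox 24 h against untreated Wt1 KO, 0 members were lower with CPM leaving out the stem cell clusters, against 1 (miR-99b-5p, then -0.93). For the difference of the RA responses, 2 members were higher with that CPM and with a prior count of 2, against 1; miR-125a-3p then stood at 1.74 and 1.46. miR-125a-3p lost its call in Wt1 KO against WT under RA with plain CPM (-1.26), the median of ratios (-1.30), CPM without the 2 clusters (-1.12) and a prior count of 2 (-0.98). Beyond the shift that each scaling puts on all entries, the cause was not tested. Leaving out a replicate is not possible with 1 library per group, and TMM without the Wt1 KO RA library changed no member's call in the comparisons without it. No paired analysis was possible because each group has 1 library. The depth of 83626 reads limits every value of RA-treated Wt1 KO, most of all miR-125a-3p with 3 reads.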
